A study of Mus musculus with 8 samples.

Results

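Drd1, Drd2, Adora2a, Ppp1r1b, Rgs9, Pde10a, Penk, Tac1 and Gpr6 are a set of 9 genes that carry dopamine signals or mark the projection neurons of the striatum. They were chosen by name from a table of 54446 mouse genes, and all 9 passed the filter on low counts that left 17636 genes. Poly(A) RNA from the medial prefrontal cortex was sequenced in 8 libraries, of which the labels call 4 Ino80e overexpression and the other 4 wild type. In the study, an adeno-associated virus injected into this region was used to alter the expression of Ino80e, which encodes a subunit of the INO80 chromatin remodeller. The labels give neither the strain, age and sex of the mice nor the promoter of the virus, the treatment of the wild-type mice or whether each library came from a separate mouse. A p-value below therefore speaks only of the variation among these libraries, some of which may be technical.

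Dopamine acts on G protein-coupled receptors of opposing classes. The receptor encoded by Drd1 raises cyclic AMP and that encoded by Drd2 lowers it. In the striatum these receptors are largely divided between projection neurons of the direct pathway, the D1 type, which also make substance P from Tac1, and those of the indirect pathway, the D2 type, which also make enkephalin from Penk and carry the adenosine receptor Adora2a and the orphan receptor Gpr6. Both types contain Ppp1r1b, Rgs9 and Pde10a. The prefrontal cortex receives dopamine fibres and has its own neurons with some of these transcripts, among them Drd1, Penk and Tac1. The striatum lies close beneath the prefrontal cortex. Whether the reads of any of these genes came from cortical or striatal cells was not tested.

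The start regions of Drd1, Drd2 and Gpr6 are shown because these receptor genes rose and fell together between libraries. Drd1 belongs to the D1 type, and Drd2 and Gpr6 belong to the D2 type. Whether these sequences bear on the co-variation was not tested. RefSeq windows of the GRCm38.p6 build were found for 6 of the 9 genes, and Adora2a, Ppp1r1b and Penk had none. Each window holds the 250 bases before a transcription start, and the Drd1 window was shortened to the 203 bases that lie in no annotated exon of the gene. The RefSeq start of Drd2 lies upstream of the gene start in GENCODE M21, at position 49340627. No GENCODE transcript of Drd2 held the bases that follow this RefSeq start. The sequences read 5′ to 3′ on the strand of the gene, and capitals mark the motifs searched on both strands, which were the GC box GGGCGG, the TATA box TATAAA, the cyclic AMP response element TGACGTCA and its core TGACG, which lies within the full element, and the CCAAT box.
Drd1 at chr13:54055706-54055908, minus strand: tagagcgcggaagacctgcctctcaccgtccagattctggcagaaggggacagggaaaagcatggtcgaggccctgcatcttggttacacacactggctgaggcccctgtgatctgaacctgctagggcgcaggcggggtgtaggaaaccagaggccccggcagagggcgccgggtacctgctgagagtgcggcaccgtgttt
Drd2 at chr9:49340153-49340402, plus strand: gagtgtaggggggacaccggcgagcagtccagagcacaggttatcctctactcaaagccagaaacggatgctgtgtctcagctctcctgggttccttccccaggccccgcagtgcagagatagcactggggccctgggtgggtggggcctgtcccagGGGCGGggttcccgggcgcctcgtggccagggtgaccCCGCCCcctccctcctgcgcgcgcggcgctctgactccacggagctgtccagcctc
Gpr6 at chr10:41072291-41072540, minus strand: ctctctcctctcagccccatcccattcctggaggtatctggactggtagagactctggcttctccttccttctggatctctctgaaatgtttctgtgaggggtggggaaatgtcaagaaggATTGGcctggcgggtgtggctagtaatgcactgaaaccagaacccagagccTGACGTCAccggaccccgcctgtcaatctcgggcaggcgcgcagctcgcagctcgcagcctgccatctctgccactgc
The Drd2 window held 2 GC boxes, 1 on each strand, and a GC box was present in 33.0% of 32536 windows of this length. The Gpr6 window held 1 full cyclic AMP response element, 78 to 71 bases before the start, a motif present in 1.56% of windows, and 1 CCAAT box on the opposite strand, present in 33.8%. None of the searched motifs was in the Drd1 stretch shown, whereas the window of another Drd1 start, not shown, held 1 GC box. The 3 stretches shown share no searched motif, and a match is only a run of letters.

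Library totals ran from 44762378 to 60490153 counts. Ino80e stood at 74.1, 23.4, 23.3 and 45.0 CPM (the usual read count unit relative to the library total, which was scaled by TMM) in overexpression replicates 1 to 4, against 22.02 ± 2.60 CPM in wild type (SD, n = 4). Only replicates 1 and 4 lay above the wild-type libraries, so the groups are named below by their labels, and a direction is that of the libraries labelled overexpression. Slc17a7, which encodes a vesicular glutamate transporter of cortical pyramidal neurons, was abundant in every library, at 1791 to 2218 CPM. This level does not show how much neighbouring tissue a library held. Wild-type replicate 4 stood apart in 7 choroid plexus genes, whose summed level was 1125 CPM there against 8.80 to 109 CPM in the other 7 libraries.

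Among the members, the D2-type genes Drd2, Adora2a and Gpr6 had the widest spread. Drd2 stood at 1.02, 6.20, 9.26 and 11.5 CPM in overexpression replicates 1 to 4 and at 7.37, 3.93, 1.53 and 11.7 CPM in wild-type replicates 1 to 4. Each group thus held a library with almost none of the transcript and a library near the top of the range, and the groups overlapped throughout. The highest library exceeded the lowest 11.5-fold, a spread matched or exceeded by 0.397% of the 15600 genes with a mean of at least 0.5 CPM, whose median spread was 1.32-fold. The low values are not a limit of depth: the lowest rested on 53 reads, with a 95% Poisson interval of 0.764 to 1.33 CPM that covers counting error only.

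Adora2a, an adenosine receptor gene whose product raises cyclic AMP in D2-type neurons, stood at 2.54, 13.5, 14.8 and 21.1 CPM in the libraries labelled overexpression and at 11.1, 8.27, 4.45 and 18.2 CPM in wild type, in replicate order. Gpr6, whose product is an orphan receptor that raises cyclic AMP, stood at 0.615, 2.87, 3.17 and 5.54 CPM and at 3.27, 2.61, 0.803 and 4.14 CPM. Both were lowest in overexpression replicate 1 and next lowest in wild-type replicate 3, and both were highest in overexpression replicate 4. The highest library exceeded the lowest 8.33-fold for Adora2a and 8.996-fold for Gpr6. Penk, the enkephalin precursor, is also of the D2 type but spread over a narrower range, 28.5, 48.7, 49.9 and 68.3 CPM in the libraries labelled overexpression and 48.1, 40.2, 34.8 and 65.02 CPM in wild type. Its highest library exceeded its lowest 2.40-fold, and its libraries stood in exactly the same order as those of Adora2a.

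Drd1 and Tac1, the D1-type genes among the members, moved over a smaller range and kept a substantial level in every library. Drd1 stood at 10.6, 17.3, 15.7 and 19.3 CPM in the libraries labelled overexpression and at 14.6, 11.8, 10.2 and 17.4 CPM in wild type. Tac1, the precursor of substance P, stood at 8.87, 12.2, 12.3 and 13.6 CPM and at 12.9, 9.14, 7.17 and 11.8 CPM. The same pair of libraries was lowest for both genes, overexpression replicate 1 and wild-type replicate 3, but the highest library exceeded the lowest only 1.90-fold for Drd1 and 1.89-fold for Tac1.

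The genes shared by both neuron types spread less than Drd2, Adora2a and Gpr6. Ppp1r1b spread about as much as Drd1, Pde10a about as much as Penk, and Rgs9 somewhat more than Penk. Ppp1r1b, whose product inhibits protein phosphatase 1 when dopamine signals raise cyclic AMP, stood at 74.1, 123, 130.3 and 141 CPM in the libraries labelled overexpression and at 94.7, 81.7, 75.3 and 124 CPM in wild type. Rgs9, which speeds the switching off of G proteins, stood at 12.9, 25.3, 29.5 and 36.2 CPM and at 22.7, 17.6, 14.1 and 28.5 CPM. Pde10a, the phosphodiesterase that breaks down cyclic AMP and cyclic GMP in striatal neurons, stood at 53.0, 114, 97.3 and 125 CPM and at 98.6, 82.2, 61.2 and 113 CPM. All were lowest in overexpression replicate 1 and highest in overexpression replicate 4, with a spread of 1.91-fold, 2.79-fold and 2.36-fold. The antisense gene 1700003D09Rik shares 460 bases of exon with Ppp1r1b and A830012C17Rik shares 233 bases with Penk, so reads of the partners could have been mixed. The libraries were prepared with strand information, but the labels do not say how the counting used it.

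**Figure D1:**
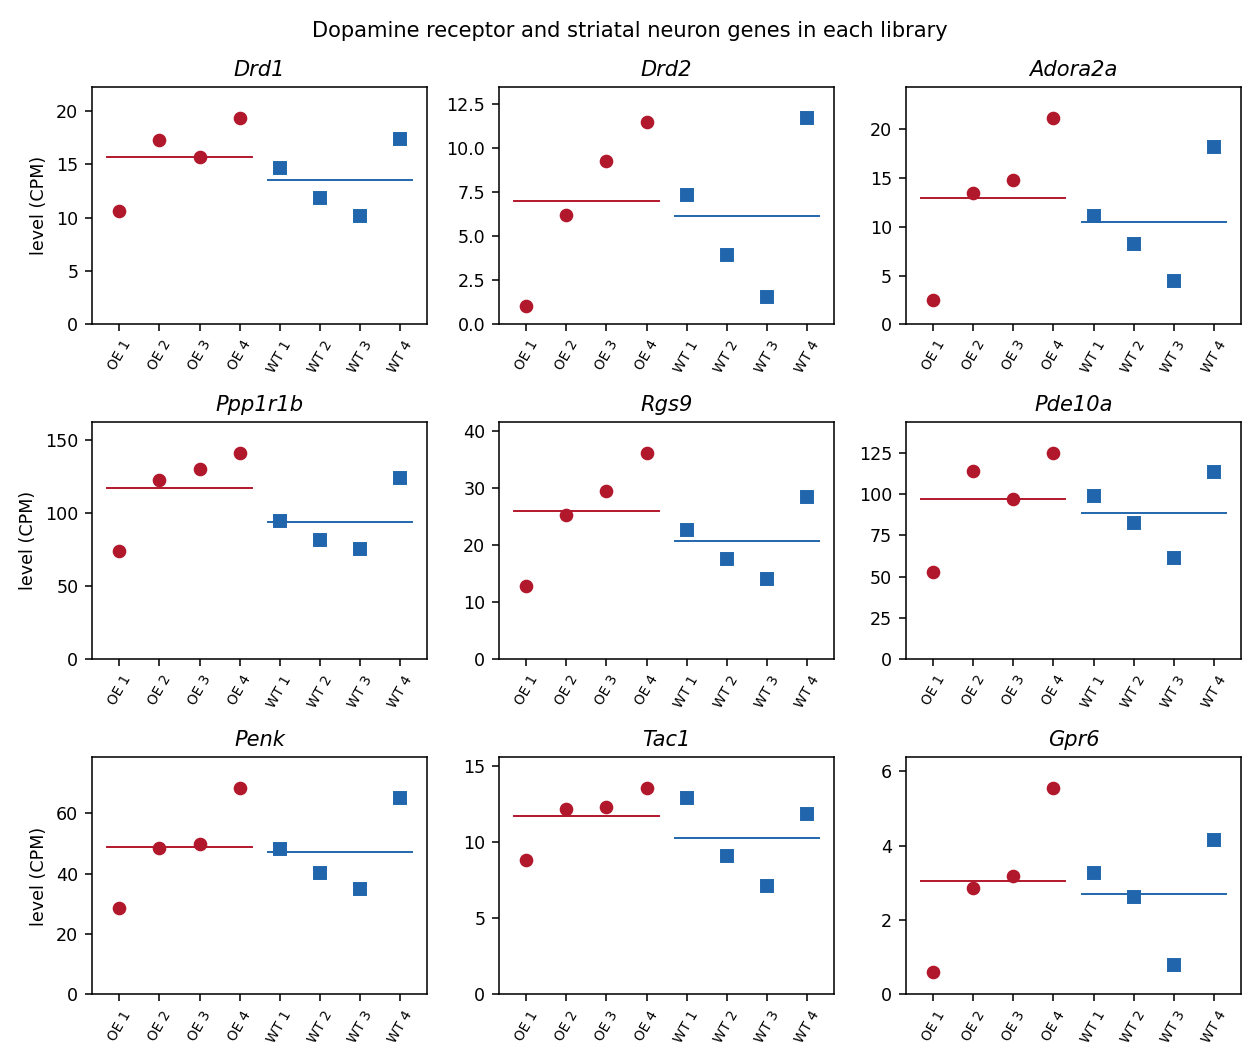
Level in CPM (y axis, from 0) of each of the 9 genes in the 8 libraries (x axis), with circles for overexpression (OE), squares for wild type (WT) and a line at each group mean. Drd2 runs from 1.02 to 11.7 CPM while Drd1 runs from 10.2 to 19.3 CPM, and the lowest libraries of every gene are overexpression replicate 1 and wild-type replicate 3.

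Per kilobase of exon, the wild-type levels formed 3 steps. Ppp1r1b at 32.1 ± 7.37 and Penk at 28.8 ± 8.06 CPM per kilobase (SD, n = 4) were the most abundant and did not differ beyond their spread. Pde10a followed at 6.91 ± 1.74. Drd1 at 3.72 ± 0.875, Adora2a at 3.43 ± 1.90, Rgs9 at 3.24 ± 0.983, Tac1 at 3.02 ± 0.767, Drd2 at 2.41 ± 1.74 and Gpr6 at 1.52 ± 0.793 CPM per kilobase each lay within the spread of their neighbours in this order. By this measure Drd1 lay above Drd2 in all 8 libraries, by 2.92 against 0.400 CPM per kilobase in overexpression replicate 1 and by only 4.79 against 4.60 in wild-type replicate 4.

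The group comparison asks whether these transcripts differ between prefrontal cortex labelled overexpression and wild type, and no member passed. Of all 17636 genes tested 6 were called, which is 0.034% (0.0113% higher and 0.0227% lower with the overexpression label), and 0 of the 9 members were called by edgeR's quasi-likelihood test or by limma-voom. DESeq2 gave an adjusted p for 4 members (Ppp1r1b, Rgs9, Pde10a and Penk), none of them called, and left 5 without one. At an unadjusted p under 0.05 edgeR gave 0 of 9 members, against 10.7% of all genes. In 5.84% of all genes the groups did not overlap, and they overlapped for each of the 9 members. The fitted log2 fold change of Drd1 was 0.22 (SE 0.219, edgeR adjusted p = 0.75), of Drd2 0.19 (SE 0.845, edgeR adjusted p = 0.95) and of Adora2a 0.31 (SE 0.689, edgeR adjusted p = 0.90). The largest was that of Rgs9, at 0.33 (SE 0.369, edgeR adjusted p = 0.79), and the smallest that of Penk, at 0.05 (SE 0.316, edgeR adjusted p = 0.97). Exact two-sided permutation tests of log2 CPM gave p = 0.343 for Ppp1r1b and p = 0.943 for Gpr6, the ends of the range over the 9 genes, and 4 libraries against 4 cannot give an exact p below 0.0286.

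These misses do not show that the levels were alike, because the intervals were wide. The 95% interval of the log2 fold change ran from -1.86 to 2.25 for Drd2, from -1.37 to 1.98 for Adora2a and from -1.58 to 1.93 for Gpr6. It was narrower for Tac1, from -0.18 to 0.58, and for Drd1, from -0.28 to 0.72. All 9 fitted values were above 0, as were 50.5% of all genes, but the members rise and fall together between libraries and are not 9 separate readings. Without overexpression replicate 4 the fitted values of Drd2 (-0.15), Adora2a (-0.03), Pde10a (-0.01), Penk (-0.15) and Gpr6 (-0.28) were below 0. Without wild-type replicate 3 those of Drd2 (-0.13), Pde10a (-0.01), Penk (-0.07) and Gpr6 (-0.13) were, and without wild-type replicate 2 that of Penk (-0.02).

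**Figure D2:**
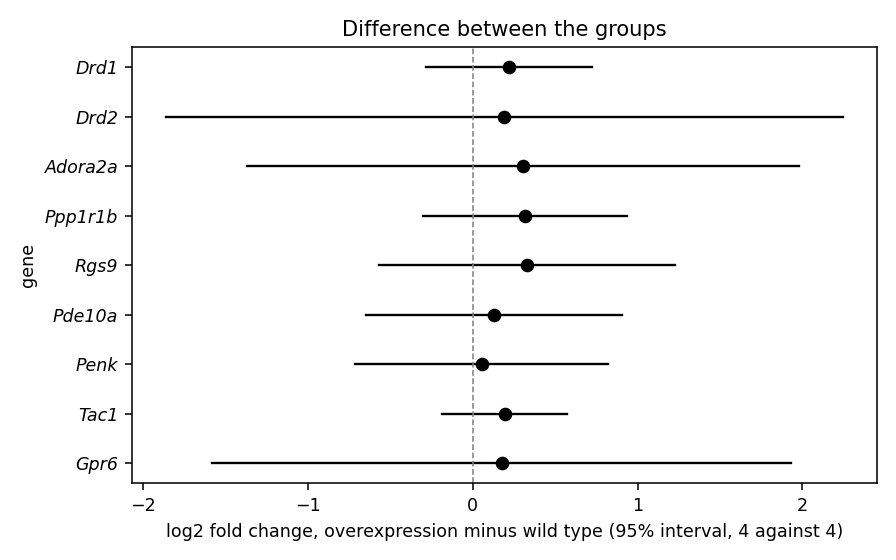
Log2 fold change, overexpression minus wild type, on the x axis for each gene (y axis), with points for the edgeR estimate and lines for its 95% interval over 4 against 4 libraries. Every interval includes 0, and that of Drd2, from -1.86 to 2.25, is the widest.

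The balance of the D1-type against the D2-type genes did not differ between groups beyond the spread. The log2 ratio of Drd1 to Drd2 was 1.58 ± 1.22 in the libraries labelled overexpression and 1.46 ± 0.93 in wild type (SD, n = 4 each), a difference of 0.12 with p = 0.886 by an exact two-sided permutation test. That of the neuropeptide genes Tac1 and Penk was -2.004 ± 0.265 against -2.19 ± 0.236, a difference of 0.18 with p = 0.314 by the same exact test. Within both groups the Drd1 to Drd2 ratio varied far more than the means differed. In linear CPM it was 10.4, 2.78, 1.69 and 1.68 in overexpression replicates 1 to 4 and 1.98, 3.01, 6.63 and 1.48 in wild-type replicates 1 to 4. It was highest in each group in the library with the least Drd2. Drd2 is its denominator and spread more than Drd1, so this follows largely from how the ratio is formed. The sign of the Drd1 to Drd2 difference turned without overexpression replicate 1 (-0.47), wild-type replicate 1 (-0.04) or wild-type replicate 4 (-0.18).

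The members varied together from library to library, in both groups. All 36 pairs had a positive Pearson correlation of log2 CPM over the 8 libraries, from 0.807 to 0.986 with a median of 0.934. With exact permutation p-values adjusted by Benjamini-Hochberg over the 36 pairs, all 36 passed 0.05 by Pearson's r and 35 by Spearman's rho, the exception being Drd2 with Tac1. The genes were chosen with results of these libraries known, so these p-values describe the set and are not independent evidence. Values of a library share its RNA sample and its scaling factor, and these factors ran from 0.962 to 1.025. Whether either bears on the co-variation was not tested.

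Drd2 and Adora2a, receptor genes of the same neuron type, had the highest r of any pair, 0.986 (exact permutation p = 0.000149, adjusted 0.000595), with rho 0.952 (exact permutation p = 0.00114, adjusted 0.00373). Drd1 and Drd2, which mark different types, had r = 0.919 (exact permutation p = 0.00134, adjusted 0.00172) and rho 0.881 (exact permutation p = 0.00724, adjusted 0.0109). Drd1 and Tac1 had r = 0.923 (exact permutation p = 0.00245, adjusted 0.00305) and rho 0.762 (exact permutation p = 0.0368, adjusted 0.0378). Rgs9 and Pde10a had r = 0.947 (exact permutation p = 0.000595, adjusted 0.00107) and rho 0.833 (exact permutation p = 0.0154, adjusted 0.0198).

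Co-variation thus crossed the division into neuron types. The 6 pairs within the D2 type had r from 0.937 to 0.986, the single D1 pair 0.923, and the 8 pairs of a D1-type with a D2-type gene 0.807 to 0.931. These ranges were not tested against each other. Centred on their group means, the 8 cross-type pairs had r from 0.849 to 0.974. Leaving out any 1 library kept every pair at an r of at least 0.762. For 34 pairs the libraries farthest from the median of the first gene were overexpression replicate 1 and wild-type replicate 3. Without the farthest 2 libraries of each pair r ran from 0.647 to 0.981 over 6 libraries, and 13 of 36 pairs passed by the exact permutation test after adjustment. Drd2 with Adora2a passed (r = 0.933, adjusted p = 0.0333 by the exact permutation test), while Drd1 with Drd2 did not (r = 0.833, adjusted p = 0.0659 by the exact permutation test). Leaving out the farthest libraries lowers both their number and the range of values. A lost call therefore cannot show what the correlation of a pair rests on.

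**Figure D3:**
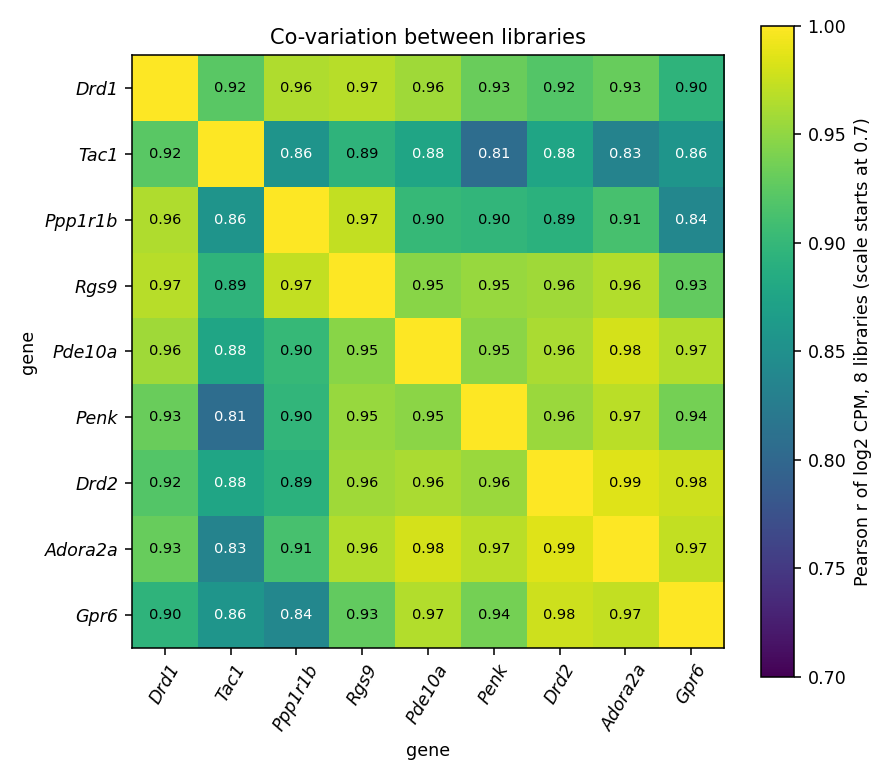
Pearson r of log2 CPM over the 8 libraries for each pair of the 9 genes (both axes), with the colour scale starting at 0.7. All off-diagonal values lie between 0.807 (Penk with Tac1) and 0.986 (Drd2 with Adora2a).

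Set against Drd2 on the linear CPM scale, the members fell into those that ran to near 0 with it and those that did not. A straight line of Adora2a on Drd2 over the 8 libraries met Drd2 = 0 at 1.86 CPM (SE 1.13), 15.9% of the mean of Adora2a, and that of Gpr6 at 0.484 CPM (SE 0.418), 16.8% of its mean. The line of Drd1 met it at 9.68 CPM (SE 1.02), 66.3% of its mean, and that of Tac1 at 7.90 CPM (SE 0.876), 71.8%. Penk, a D2-type gene, behaved in this respect like Drd1 and Tac1, with 27.1 CPM (SE 2.62) or 56.5% of its mean at Drd2 = 0. The corresponding shares were 63.7% for Ppp1r1b, 60.7% for Pde10a and 48.2% for Rgs9. Leaving out 1 library at a time moved the Drd1 value between 9.19 and 10.1 CPM and the Adora2a value between 1.49 and 2.44 CPM. These points lie just outside the measured range, whose lowest Drd2 level was 1.02 CPM.

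**Figure D4:**
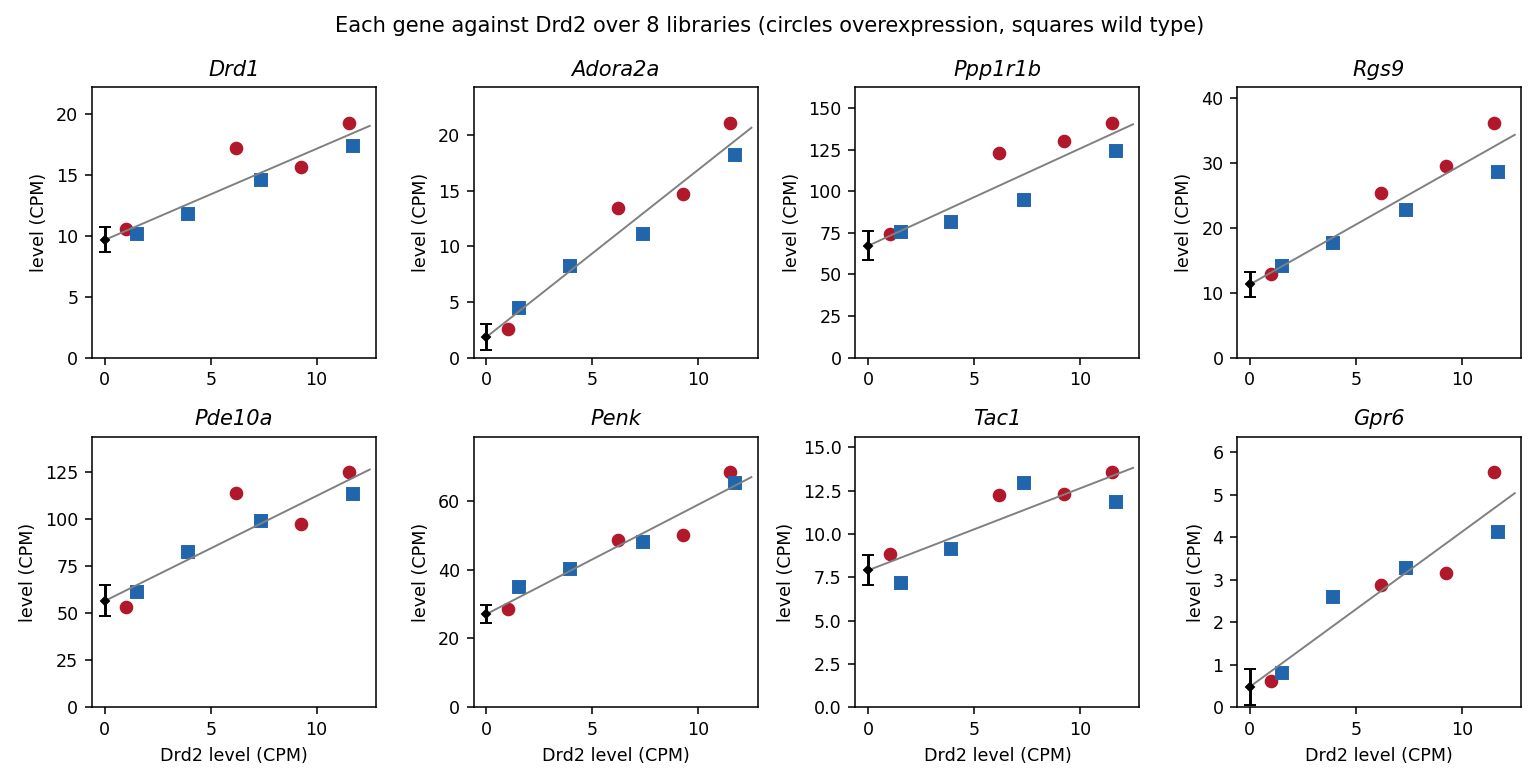
Level of each of 8 genes (y axis, CPM from 0) against that of Drd2 (x axis, CPM) in the 8 libraries, with circles for overexpression, squares for wild type, the least-squares line, and a black diamond with its SE at Drd2 = 0. Adora2a and Gpr6 run towards 0 with Drd2, whereas Drd1 meets the axis at 9.68 CPM and Penk at 27.1 CPM.

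Some other genes of striatal projection neurons followed the same libraries and others did not. Of the 21 tested genes of both striatal types that are not members, 9 had an r of at least 0.8 with Drd2 and the median was 0.78, whereas 1.43% of all tested genes reached 0.8 and their median was -0.02. Rxrg, a retinoid receptor gene, ran from 3.59 to 11.5 CPM (r = 0.956). Six3, a transcription factor gene needed for D2-type neurons, ran from 0.0385 CPM in overexpression replicate 1 to 2.97 CPM in overexpression replicate 4 (r = 0.929). The lowest r of this list were those of Foxp1 (r = 0.160, spread 1.24-fold) and Meis2 (r = 0.323, spread 1.18-fold). Other abundant genes of the list stood higher, such as Gng7 (109 to 171 CPM, r = 0.927) and Adcy5 (208 to 287 CPM, r = 0.814). Whether expression in cortical neurons accounts for these differences was not tested. Among the 8 D1-type genes that are not members, the median was 0.25 and 2 reached 0.8, Slc35d3 (0.308 to 2.57 CPM, r = 0.989) and Isl1 (0 to 0.831 CPM, r = 0.879). Pdyn (r = 0.765) and Zfp521 (r = 0.426) lay between, while Chrm4, Ebf1, Eya1 and Sfxn1 had r from -0.40 to 0.08. Sp9, the tested D2-type gene that is not a member, ran from 2.90 to 8.97 CPM (r = 0.798). In bulk tissue fewer cells of a type and less RNA per cell cannot be told apart. None of the 24 genes of both types, the 10 D1-type genes or the 5 D2-type genes tested was called in either direction by edgeR or limma-voom (2, 0 and 0 at an unadjusted edgeR p under 0.05), nor by DESeq2 among the 16, 3 and 1 for which it gave an adjusted p, and their median log2 fold changes were 0.15, 0.06 and 0.18, against 0.00 over all genes. Gpr52, the 6th gene of the D2-type list, was not matched by its symbol.

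Most other genes of the dopamine pathway did not reach an r of 0.8 with Drd2. Of 35 tested genes of dopamine reception and signalling, 0 were called in either direction by edgeR, and the median log2 fold change was 0.01. At an unadjusted edgeR p under 0.05 there were 5, against 10.7% of all genes. Limma-voom also called 0 of them, as did DESeq2 among the 28 for which it gave an adjusted p. Leaving out the 5 members, 2 of 30 had an r of at least 0.8 with Drd2, against 1.43% of all tested genes. They were the striatal adenylyl cyclase gene Adcy5 (r = 0.814) and the phosphodiesterase gene Pde1b (r = 0.823). The median r of the 30 was -0.018, against -0.016 for all tested genes. The remaining dopamine receptors were scarce. Drd5, a receptor of the D1 class, ran from 0.847 to 2.71 CPM (r = -0.016) and Drd4, of the D2 class, from 0.316 to 1.40 CPM (r = -0.743). Drd3 was at or below 0.277 CPM and did not pass the filter on low counts. Arrb2, which encodes a beta-arrestin that binds activated receptors, had the lowest unadjusted p of the list, with a log2 fold change of 0.20 (SE 0.069, edgeR adjusted p = 0.34).

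Genes of other cell types that the dissection could hold moved with the members to different degrees, and their part in the result was not tested. The summed level of 14 cortical pyramidal neuron genes was 8765 to 10060 CPM in the libraries labelled overexpression and 8216 to 9844 CPM in wild type. Their median r with Drd2 was -0.46, with Camk2a, a calcium-dependent kinase gene of pyramidal neurons, at -0.906, and they were highest in the libraries with the least Drd2, overexpression replicate 1 and wild-type replicate 3. The exception past 0.8 was Foxp2 (r = 0.903), a deep-layer gene that striatal neurons also express. Next came Syt6 (r = 0.713) and Neurod6 (r = 0.265), and which cells their reads came from was not tested. The 14 GABAergic interneuron genes had a median r of -0.07 with none at 0.8 or above, and their sum stayed within 1386 to 1518 CPM. The 5 ependymal genes, which mark the lining of the ventricles, summed to 7.96 to 22.6 CPM in the libraries labelled overexpression and 9.78 to 22.8 CPM in wild type, and 2 of them reached 0.8, the ciliary gene Ccdc153 (r = 0.927) and Rarres2 (r = 0.912). None of these 5 was at 0 in any library.

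The remaining lists had median r values between 0.19 and 0.56, and no difference between lists was tested. Choroid plexus genes had a median r of 0.22 and 0 of 7 reached 0.8. They were high in wild-type replicate 4 but summed to 14.5 CPM in overexpression replicate 4, where Drd2 was 11.5 CPM. Septum genes (0 of 5, median r 0.19), claustrum genes (0 of 5, median r 0.27) and striatal cholinergic neuron genes (0 of 4 tested, median r 0.25) did not reach 0.8, and of the cholinergic genes the transcription factor gene Lhx8 was at or below 0.198 CPM. Among 7 genes of immature neurons 1 reached 0.8 (Cd24a, r = 0.820) and the median was 0.56. The 10 activity-regulated genes, of which edgeR called 2 lower, limma-voom 0 and DESeq2 0 of the 7 with an adjusted p, had a median r of 0.27 with Drd2 and 0 at 0.8. All of these values come from the same 8 libraries and share their depth and scaling.

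**Figure D5:**
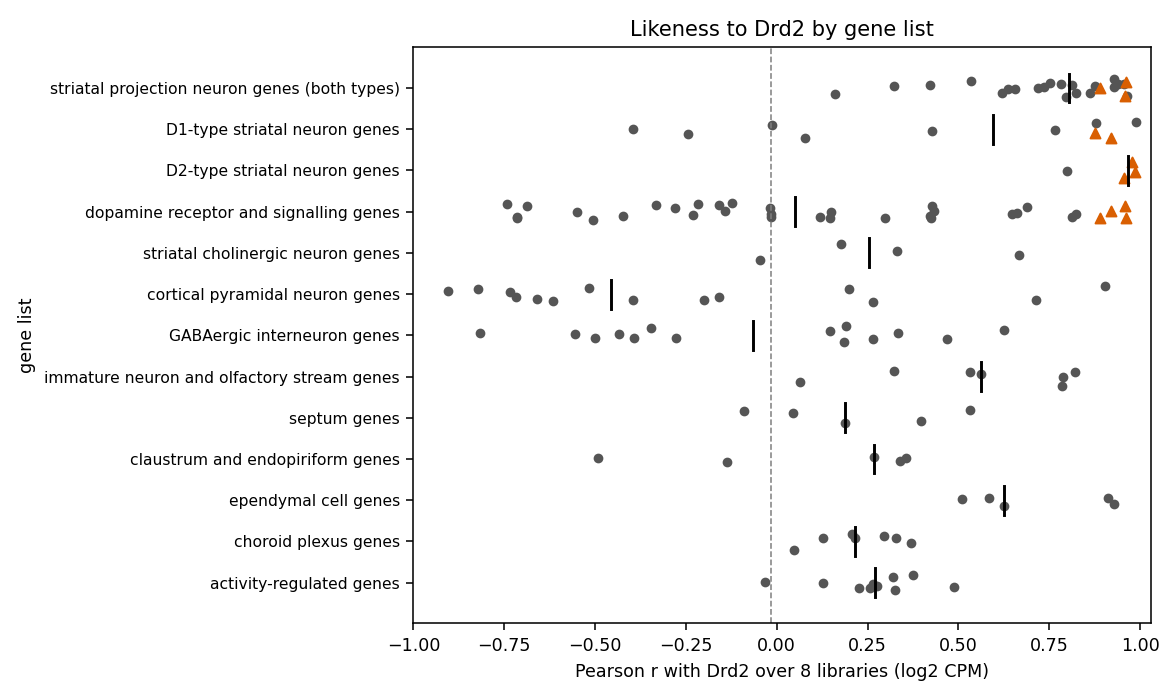
Pearson r with Drd2 over 8 libraries (x axis) for each tested gene of 13 gene lists (y axis), with triangles for members, dots for other genes, a bar at the median of each list and a dashed line at the median of all genes tested, -0.02. The median is 0.81 for genes of both striatal types, members included, 0.25 for striatal cholinergic genes and -0.46 for cortical pyramidal genes.

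For each member, 13875 other genes were ranked by their likeness to it, which left out genes with a mean under 0.5 CPM, mitochondrial genes and those with only a provisional name. Of the 45 places held by the 5 most like genes of each member, 13 went to members, and 22 different genes filled the rest, 5 of them on the list for both striatal types, 1 on the D1-type list, 2 on the ependymal list and the others on none of these. The gene most like Drd2 was Slc35d3 (r = 0.989), which is on the D1-type list, followed by Adora2a and Gpr6. Syndig1l was most like both Drd1 (r = 0.974) and Rgs9 (r = 0.995), and Rarb, a retinoic acid receptor gene of striatal neurons, was most like Ppp1r1b (r = 0.976). Rxrg was most like Gpr6 (r = 0.982), Adora2a was most like Pde10a (r = 0.980) and Drd2 was most like Adora2a. The gene most like Tac1 was Spint1 (r = 0.964) and that most like Penk was Ttc21a (r = 0.979), neither of them on a striatal list, and no member was among the 5 most like either peptide gene. The share of genes at an r of at least 0.8 was 1.37% for Drd2, 1.46% for Drd1 and 1.09% for Tac1.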

How the data were processed

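Poly(A) RNA of medial prefrontal cortex was measured in 8 libraries, and the sample titles give the groups of 4. The authors deposited raw read counts per Ensembl gene. The submitters' processing notes list featureCounts 2.0.3, STAR 2.7.10 and Trimmomatic 0.39, with mm10 and GRCm38 as builds. The strand setting of the counting is not given, so counts of overlapping genes are uncertain. Symbols, for 54409 of 54446 identifiers, and exon lengths came from GENCODE M21 on GRCm38.

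filterByExpr left 17636 genes, scaled by TMM. The test was edgeR 4.0.16's robust quasi-likelihood test in R 4.3.3, with Benjamini-Hochberg adjustment over all genes and a threshold of 0.05. SE is the fold change over the root of F. Single values used exact permutations, and log2 CPM a prior count of 2. Alternatives were other scalings and filters, DESeq2 1.42.0, limma-voom 3.58.1, no robust estimation, a replicate block, a GC spline, another prior count, and each library left out. Members, lists and tests were chosen with earlier results of these data known. Named genes are the members, the most like genes (up to 5 each) and up to 4 genes per list by lowest p; other list genes were named after their values were seen. The lowest chi-square per degree of freedom between libraries was 9.53, so none was a copy.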

Additional observations from a re-analysis of the deposited data

Results flagged for a closer look

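Of 44 sets of 4 libraries examined (9 members and 13 gene lists in each group), 2 held a library far from the others, where chance alone flags about 1 in 20. Both concern the summed level of the choroid plexus genes. In wild type, replicate 4 stood at 1125 CPM against 8.80 to 109 CPM in the others, a gap of 0.910 of the group's range. In the libraries labelled overexpression, replicate 3 stood at 108.9 CPM against 14.5 to 18.8 CPM, a gap of 0.955 of the range. No member was flagged in either group.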

How the results depend on the processing

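No member was called under any of 18 alternatives or left-out libraries, although DESeq2 gave no adjusted p for 5 of the 9 (Drd1, Drd2, Adora2a, Tac1 and Gpr6), and at an unadjusted p under 0.05 it gave 0 of 9. The count of calls over all genes was 83 with no low-count filter, 28 with DESeq2, 2 with limma-voom, 2 without robust estimation and 1 without overexpression libraries 2 and 3 (left out after seeing the data, as Ino80e was not raised there), and 1 to 8 with 1 library left out, against 6. Penk fell below 0 with the GC correction (-0.0224). With 1 library left out the log2 fold changes ran from -0.15 to 0.72 for Drd2, -0.0323 to 0.71 for Adora2a, -0.0123 to 0.33 for Pde10a, -0.15 to 0.25 for Penk and -0.28 to 0.52 for Gpr6. The Drd1 to Drd2 difference ran from -0.47 to 0.53 and that of Tac1 to Penk from 0.08 to 0.29. Without the 2 farthest libraries the correlations of Drd1 with Drd2 (0.833), Drd1 with Tac1 (0.828) and Rgs9 with Pde10a (0.849) kept their sign and lost their call. In linear CPM, an alternative chosen after seeing the data, all 36 pairs passed.

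Replicate numbers did not pair the libraries: same-numbered libraries had correlations of deviations of -0.04, -0.03, 0.07 and 0.05. With the replicate number as a block 1 gene was called, no member among them, the Drd1 to Drd2 difference was 0.12 (exact sign-flip p = 0.75) and that of Tac1 to Penk 0.18 (exact sign-flip p = 0.125, the smallest possible). Depth does not limit the members, whose lowest count was 32 reads (Gpr6), but 4 libraries a group limit the intervals.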

Other observations

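Some genes on no striatal list were among those most like the members, and those named here were chosen after their values were seen. Dnah3, which encodes an axonemal dynein chain, had r = 0.976 with Drd2 over the 8 libraries and ran from 0.615 to 1.59 CPM. The genes most like Penk were Ttc21a (r = 0.979, 0.789 to 4.85 CPM) and Odf3b (r = 0.979, 0.731 to 1.62 CPM). Ccdc153 (r = 0.965) and Rarres2 (r = 0.965) were among the 5 most like Pde10a. Foxj1, the transcription factor gene of motile ciliated cells, had r = 0.626 with Drd2 and levels of 3.99 CPM in wild-type replicate 2 and 11.2 CPM in wild-type replicate 4.

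The libraries with raised Ino80e lay at opposite ends of the members' range. Overexpression replicate 1, with Ino80e at 74.1 CPM, was among the 2 lowest libraries for all 9 members, and overexpression replicate 4, with Ino80e at 45.0 CPM, was among the 2 highest for all 9. Wild-type replicate 3 was among the 2 lowest for all 9, and wild-type replicate 4 among the 2 highest for 5.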
